A study of Mus musculus with 16 samples.

Results

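The genes described are 10 transcription factors of the developing mouse heart, *Nkx2-5*, *Isl1*, *Gata4*, *Gata6*, *Tbx5*, *Tbx1*, *Tbx20*, *Hand1*, *Hand2* and *Mef2c*, chosen by name from the 29453 genes of a single-cell RNA count matrix of chimeric embryos. In these chimeras *Stat3* null embryonic stem cells that carry a tdTomato reporter had been injected into wild-type (WT) blastocysts. Donor and host were both on the CD1 background. Whole embryos were taken on embryonic days 7.5, 8.5 and 9.5 (E7.5, E8.5, E9.5). Embryos were pooled for a library at E7.5 and E8.5 and handled singly at E9.5, and their cells were sorted into tdTomato-positive cells (null) and tdTomato-negative cells (WT), and each sorted fraction was sequenced as its own library with 10x 3′ v3 chemistry. There were 2 libraries per genotype at E7.5, 2 at E8.5 and 4 at E9.5, 16 in all. Within each stage and genotype the libraries are called A, B, C and D here, and a shared letter does not mean a shared embryo.

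Several features limit the groups as a model. The null cells had grown as cultured stem cells and the WT cells had not, and only null cells carried the reporter, so these differences and the loss of *Stat3* cannot be told apart. Null and WT cells developed side by side in the same embryos, so a signal that passes between cells could reach both. Embryos with a sizeable donor contribution had been selected. The E7.5 embryos had been classed by size, and which library holds which class was not given in the sources used here. Fewer embryos than libraries were described at E9.5, so libraries of that stage may not be independent animals, and p-values measure the spread between libraries, part of which may be technical.

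The heart forms from lateral plate mesoderm. Cells of the first heart field (FHF) make the early tube, and cells of the second heart field (SHF), which lies in pharyngeal mesoderm, are added later at both ends. NKX2-5 is a homeodomain factor and an early mark of cardiac commitment, ISL1 is a LIM-homeodomain factor of second heart field progenitors and of several neuron classes, and GATA4 and GATA6 are zinc-finger factors of cardiac mesoderm and endoderm. TBX5 acts in the first heart field, the atria and the forelimb, TBX1 in pharyngeal mesoderm and endoderm, and TBX20 in cardiomyocytes and extra-embryonic mesoderm. HAND1 and HAND2 are basic helix-loop-helix factors named for heart and neural crest derivatives, and MEF2C is a MADS-box activator of muscle genes that also acts in endothelium and blood. These proteins bind each other and the promoters of each other's genes, which is why they are often described as a cardiac network.

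The text uses 37841 cells, which is what remained after leaving out 3395 doublets and 596 cells of the WT gate in which tdTomato was counted. A library held 360 to 4327 cells and 20682659 to 138613245 unique molecular identifiers (UMIs). A tdTomato UMI was present in 72.3% to 98.3% of the cells of the null libraries, with the lowest share in E8.5 null B. Among all singlets, those 596 cells included, 527 of 37908 distinct cell barcodes occurred in more than 1 library. Levels are given in CPM, the UMIs of a gene per 1000000 UMIs of the same cells of a library. In the cardiac lineage defined in the next paragraph *Stat3* itself averaged 3.88 CPM in WT and 1.47 in null cells on day 8.5, and on day 9.5 it averaged 4.93 and 1.47. The deletion removes internal exons, and 3′ tags lie downstream of it, so this level does not by itself show the deletion.

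Cells carried labels that the authors had transferred from a gastrulation atlas, with 87 labels in use. The cardiac lineage was taken as all labels of cardiomyocytes and of cardiopharyngeal progenitors. It held 132 and 241 cells in the E8.5 WT libraries A and B and 212 and 84 in the null libraries. At E9.5 it held 90, 127, 110 and 214 cells in WT libraries A to D and 162, 144, 104 and 90 in null libraries. At E7.5 the WT library A held 11 such cells, so null and WT cardiac cells were not compared at that stage. All 12 listed sarcomere and chamber markers, *Myl7*, *Tnnt2* and *Actc1* among them, were above 20 CPM in the pooled cardiomyocyte labels of both genotypes at E8.5 and E9.5. Their summed level averaged 34903 CPM in WT and 29330 in null cardiomyocytes at E8.5. At E9.5 it ranged from 9136 to 33866 CPM over WT libraries and from 11617 to 22817 over null libraries. Genes used for the labels may include these markers, so their level is no independent check of the label. Globin and other erythroid markers were also counted in these cells. The 7-gene erythroid list summed to 112 to 441 CPM in E9.5 WT cardiomyocytes and to 3.20 to 20.6 in null cardiomyocytes, and its part in the comparisons that follow was not tested.

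At E8.5 and E9.5 *Nkx2-5* had the largest share of its UMIs in cardiomyocytes among the 10 members. Averaged over WT libraries, 71.4% of its UMIs at E8.5 came from cardiomyocytes, which were 2.53% of the cells. At E9.5 the share was 63.2% from 1.05% of the cells. At E7.5, with few cardiomyocytes, it was 14.9%, below the 24.96% of *Tbx5*. Among labels with more than 15 WT cells in at least 2 libraries, *Nkx2-5* was highest outside the myocardium, in the thyroid primordium, at 122 and 156 CPM in libraries A and B of E8.5 and at 50.2, 31.1 and 40.3 CPM in E9.5 libraries A, B and D. Both E8.5 values lay above all 3 E9.5 values. No single cardiomyocyte label reached 2 WT libraries of that size. In the 1 WT library that did, *Nkx2-5* stood at 466 CPM in Cardiomyocytes SHF 2 and 343 CPM in Cardiomyocytes FHF 2 at E8.5. *Nkx2-5* reached 20 CPM in 4 of the 87 label and stage combinations seen in at least 2 WT libraries. The orders of labels given for the other members are over these combinations, and levels of labels with 1 such library, which have no replicate, are added where they were higher.

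*Isl1*, by contrast, was high in neurons. Dorsal midbrain neurons of E9.5 embryos held it at 317, 272, 351 and 289 CPM in WT libraries A to D, and these cells, 7.88% of all, gave 40.5% of its UMIs at that stage. The thyroid primordium of E8.5 followed with 229 and 200 CPM, below every library of the neurons. Labels with 1 library that lay between their means were otic neural progenitors (279 CPM) and Cardiomyocytes FHF 1 (238 CPM) of E9.5. The FHF and SHF cardiopharyngeal progenitors of E9.5 came next after the thyroid labels, at means of 130 and 125 CPM, and their libraries overlapped. *Isl1* reached 20 CPM in 28 of the 87 combinations, more than any other member. Its RefSeq promoter on chr13, from 250 bases before to 50 bases after the start, is shown because *Isl1* is called in a later comparison. It lies at chr13:116309639-116309938 on the minus strand of GRCm38.p6, and capitals mark the GATA-factor motif AGATAA, searched on both strands and present in 11.2% of 32851 RefSeq mouse promoters of this length.
*Isl1* promoter: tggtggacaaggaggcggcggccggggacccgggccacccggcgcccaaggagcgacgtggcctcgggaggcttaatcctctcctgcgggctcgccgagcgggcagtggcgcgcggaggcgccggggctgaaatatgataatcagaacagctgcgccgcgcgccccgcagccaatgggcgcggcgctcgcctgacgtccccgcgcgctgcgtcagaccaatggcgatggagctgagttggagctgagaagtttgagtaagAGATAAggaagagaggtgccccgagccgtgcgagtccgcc

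The GATA factors shared the epicardium, the outer layer of the heart. Among combinations with replicates *Gata4* was highest there, at 85.5, 139, 123 and 118 CPM in E9.5 WT libraries A to D. The pooled E8.5 cardiomyocytes stood at 76.3 and 74.5 CPM, and the next single label with replicates, visceral endoderm of E7.5, at 31.0 and 42.9 CPM. In 1 library of E9.5 parietal endoderm *Gata4* stood at 184 CPM and *Gata6* at 790 CPM, above all other labels. *Gata6* was present more widely, at or above 20 CPM in 26 combinations against 6 for *Gata4*. Its highest level with replicates was in the E9.5 allantois, the mesoderm of the future umbilical vessels, at 269, 314 and 247 CPM in libraries A, B and D, and the E9.5 epicardium overlapped with it at 244, 298, 255 and 263 CPM. Cardiomyocytes gave 29.4% of *Gata4* UMIs at E8.5, and the epicardium gave 35.6% at E9.5.

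The T-box genes each had their own site. With replicates *Tbx5* was highest in FHF cardiopharyngeal progenitors of E9.5, at 122, 119, 99.1 and 58.1 CPM in libraries A to D, and limb mesoderm of E8.5 followed at 61.2 and 41.8 CPM, overlapping with the lowest progenitor library. In the 1 WT library with enough cells, Cardiomyocytes SHF 2 and SHF 1 of E8.5 held *Tbx5* at 126 and 117 CPM. *Tbx1* peaked in the SHF progenitors, at 136 and 156 CPM at E8.5 and at 193, 119 and 88.9 CPM in E9.5 libraries B, C and D. These stages overlapped. *Tbx20* with replicates was highest in yolk sac (YS) mesothelium, at 127, 112 and 99.8 CPM in E9.5 libraries A, B and D and at 97.6 and 99.2 CPM at E8.5, and this label gave 29.5% of its UMIs at E9.5. Pooled cardiomyocytes, at 105.5 and 92.8 CPM at E8.5, overlapped with it, and in 1 library of E8.5 Cardiomyocytes SHF 2 *Tbx20* stood at 196 CPM. *Tbx5* reached 20 CPM in 8 combinations, *Tbx1* in 13 and *Tbx20* in 9.

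The HAND genes were high in lateral and extra-embryonic mesoderm. *Hand1* stood at 759 and 753 CPM in mesenchyme and at 769 and 619 CPM in lateral plate mesoderm of E7.5, which overlapped. At E8.5 mesenchyme, 4.10% of the cells, gave 38.6% of its UMIs. *Hand2* stood at 210, 220.5, 192 and 230 CPM in the E9.5 epicardium and at 250, 159 and 223 CPM in the E9.5 allantois, which overlapped too, and in 1 library of E9.5 Cardiomyocytes FHF 1 it stood at 225 CPM. Limb mesoderm gave 33.2% of its UMIs at E9.5. *Hand2* shares its locus on chromosome 8 with the antisense transcript *Hand2os1*, and *Gata6* overlaps with *1010001N08Rik* on the other strand, so where strand was not used in counting, reads of such pairs cannot be told apart.

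*Mef2c* was high in megakaryocyte and erythro-myeloid progenitors and in cardiomyocytes. In E9.5 megakaryocyte progenitors it stood at 486.5 and 551 CPM in WT libraries B and D, and in E9.5 erythro-myeloid progenitors (EMP) at 414, 505, 538 and 401 CPM in libraries A to D. The labels overlapped, and the pooled E9.5 cardiomyocytes, at 322 to 639 CPM, overlapped with them. In 1 library each of E8.5, megakaryocyte progenitors stood at 612 CPM and Cardiomyocytes SHF 2 at 573 CPM. EMP gave 24.7% of *Mef2c* UMIs at E9.5 and cardiomyocytes gave 13.5%, while at E8.5 EMP gave 7.16% and cardiomyocytes 22.6%. RefSeq lists 3 *Mef2c* promoters. The most upstream one, at chr13:83503784-83504083 on the plus strand of GRCm38.p6, is shown because it is the sole one of 9 member promoters with the STAT motif TTCNNNGAA, which reads the same on both strands and occurs in 8.30% of all 32851 promoters. Capitals mark the match, which is a match of letters and no evidence of binding.
*Mef2c* promoter: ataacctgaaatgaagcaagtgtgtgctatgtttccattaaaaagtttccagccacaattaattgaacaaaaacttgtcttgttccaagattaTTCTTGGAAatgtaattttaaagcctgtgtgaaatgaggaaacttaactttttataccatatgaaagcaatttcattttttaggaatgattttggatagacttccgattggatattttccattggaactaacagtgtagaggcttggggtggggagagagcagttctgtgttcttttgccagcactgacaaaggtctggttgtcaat
The 9 promoters belong to *Hand2*, *Isl1*, *Mef2c*, *Nkx2-5*, *Tbx1* and *Tbx20*. The GATA motif matched 2 of them, those of *Isl1* and *Hand2*. The T-box motif AGGTGT matched 2 as well, 1 each of *Mef2c* and *Tbx1*, and occurs in 13.7% of all promoters.

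**Figure D1:**
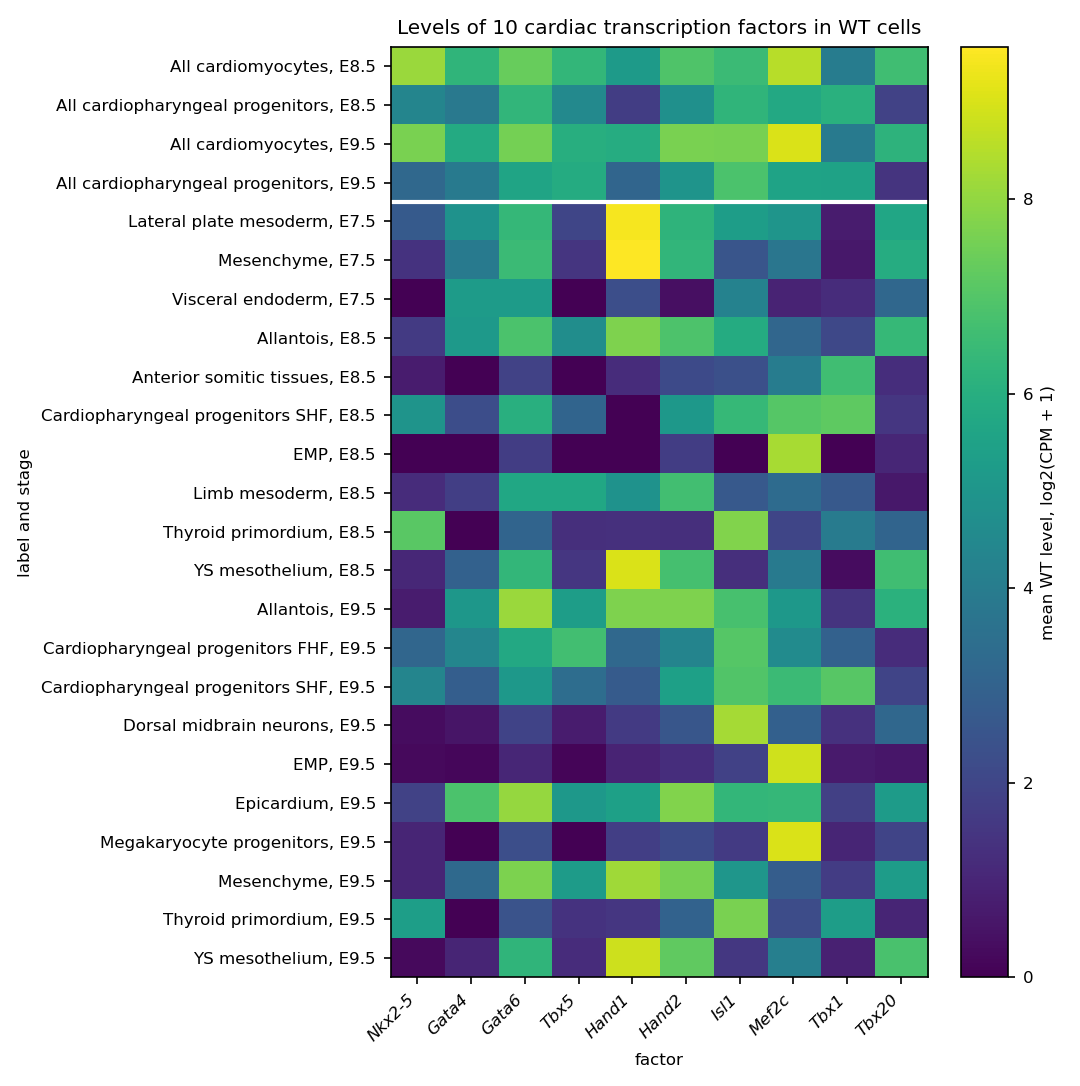
Heat map of the mean WT level of the 10 members, as log2(CPM + 1) in colour, with the pooled cardiac cells above the white line and, below it, the label and stage combinations in which a member had 1 of its 3 highest means. *Nkx2-5* is bright in cardiomyocytes and the thyroid primordium, *Hand1* in E7.5 mesoderm and *Isl1* in dorsal midbrain neurons.

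Some members followed each other across labels. Over the 87 WT combinations Pearson's r of log2(CPM + 1) was 0.83 between *Gata4* and *Gata6*, 0.82 between *Gata6* and *Hand2*, and 0.75 between *Hand1* and *Tbx20*. The lowest value was -0.18, between *Hand1* and *Tbx1*. The combinations share libraries and embryos and differ in depth, so these values are a description. Against 10167 genes that reached 20 CPM somewhere, the gene most like a member belonged to its own family for 3 of the 10, with *Nkx2-6* closest to *Nkx2-5* (r = 0.81), *Gata6* to *Gata4* and *Gata5* to *Gata6* (r = 0.85). *Wnt2*, a secreted ligand, was closest to *Tbx5* (r = 0.83) and *Foxl2* to *Tbx1* (r = 0.78). For *Hand2* the closest were the noncoding *5033428I22Rik* (r = 0.94), which begins 7484 bases away on the same strand, and *Gm45357* (r = 0.93). *Sap30l*, 18487 bases from *Hand1*, was second for *Hand1* (r = 0.80) after *Prdm6* (r = 0.84). *Myl7*, an atrial myosin light chain, was second for *Gata4* (r = 0.74), *Capn6* and *Isl2* led for *Isl1* (r = 0.69 and 0.68), *Rasa3* for *Mef2c* (r = 0.74) and *Colec11* for *Tbx20* (r = 0.79).

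Within single cardiomyocytes the factors were detected together. After each cell was thinned to 10000 UMIs, a mean of 5.08 of the 10 members was detected per WT cardiomyocyte at E8.5 and 4.69 at E9.5, against 2.22 and 1.91 per cardiopharyngeal progenitor. *Nkx2-5* was detected in 83.3% of E8.5 WT cardiomyocytes, and together with *Mef2c* in 73.4%. In E9.5 WT cardiomyocytes the pair was detected together in 57.6%. In null cardiomyocytes the mean number of members per cell was 4.81 (range over libraries 4.61 to 5.02) at E8.5 and 4.02 (3.30 to 4.98) at E9.5, and the WT ranges, 4.80 to 5.37 and 4.14 to 5.03, overlapped with them. Single-cell detection also takes in free RNA. Erythroid cells, in which *Nkx2-5* is not known to act, give a guide to that level, and *Nkx2-5* was detected in 0.482% of WT erythroid cells at E8.5. *Mef2c* was detected in 4.53% of them, which may include its own expression in blood, with 31385 median UMIs per cell before thinning against 19623 in cardiomyocytes.

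The main comparison asked whether null cells that took a cardiac label held these factors at the level of their WT neighbours. No member was called, that is, passed an adjusted p of 0.05 in edgeR's quasi-likelihood test with a fold change over 2. This was so in 28 member tests at E8.5 and 29 at E9.5, over the whole cardiac lineage, all cardiomyocytes and all cardiopharyngeal progenitors. Over all genes 0.0144% of 27837 tests at E8.5 and 0.0939% of 28768 tests at E9.5 were called, so a count of 0 in 28 or 29 is near that background. At an unadjusted p under 0.05 there were 2 member tests at E8.5 and 1 at E9.5. Over all genes of the lineage, cardiomyocytes and progenitors the counts were 383 of 10239, 359 of 8530 and 379 of 9068 at E8.5. At E9.5 they were 734 of 10782, 395 of 7841 and 693 of 10145. The fit of both stages with stage as a term held the 12 E8.5 and E9.5 libraries and no E7.5 library. In it 0 of 29 member tests were called, against 0.0994% of all genes, and 1 was at an unadjusted p under 0.05. The change of the genotype effect from E8.5 to E9.5 was called for 0 of 30, against 0.00645% of all genes, with 0 at an unadjusted p under 0.05. By the same test *Stat3* itself over the lineage was not called at E8.5 (log2 fold change -1.48) or E9.5 (-1.79, adjusted p 0.122). It was called in the fit of both stages (-1.70, adjusted p 0.0163, edgeR). At its low WT level, 3.88 and 4.93 CPM, a fold change over 2 could thus go uncalled at a single stage. Here, as in all bulk sums, fewer expressing cells and less RNA per cell cannot be told apart.

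*Nkx2-5* in cardiomyocytes stood at 292 and 268 CPM in the E8.5 WT libraries and at 223 and 330 in the null libraries, so the null values lay on either side of the WT values. Its log2 fold change (null minus WT) was -0.01, with a 95% interval from -0.42 to 0.39. At E9.5 it stood at 279, 219, 111 and 193 CPM in WT and at 211, 227, 133 and 134 in null libraries, a log2 fold change of -0.18 (-0.90 to 0.54). Over the whole cardiac lineage the libraries spread further, from 113 to 158 CPM in WT and 77.4 to 173 in null libraries at E8.5 and from 25.7 to 75.2 and 35.4 to 73.5 at E9.5. Cardiomyocytes made up 34.8% and 51.5% of the lineage in the E8.5 WT libraries and 31.1% and 48.8% in the null libraries, and *Nkx2-5* was the higher of the pair in the library with the higher share in both genotypes.

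*Gata4* was the member furthest from 0 in E8.5 cardiomyocytes. It stood at 76.3 and 74.5 CPM in WT and at 55.3 and 53.0 in null libraries, and the groups did not overlap. The log2 fold change was -0.47 (SE 0.18, 95% interval -0.85 to -0.08) with an unadjusted p of 0.0200, and it did not pass the adjustment over all genes (adjusted p = 1.00, edgeR). At E9.5 the groups overlapped, at 50.7, 57.4, 69.1 and 51.2 CPM in WT and 47.3, 72.8, 57.6 and 37.9 in null libraries, with a log2 fold change of -0.08 (-0.50 to 0.33). In E8.5 progenitors the estimate had the other sign, at 8.39 and 18.7 CPM in WT and 19.6 and 17.1 in null libraries, which overlapped (0.52, -0.16 to 1.19). *Gata6* gave the unadjusted p under 0.05 of E9.5. Over the E9.5 cardiac lineage it stood at 71.1, 86.7, 68.1 and 81.3 CPM in WT and 96.2, 100.6, 75.6 and 98.2 in null libraries. The log2 fold change was 0.26 (SE 0.10, 0.05 to 0.47), with an unadjusted p of 0.0206 and an adjusted p of 0.608. At E8.5 *Gata6* stood at 114 and 109 CPM in WT and 112 and 112 in null libraries. Other E8.5 groups without overlap were those of *Hand2* and *Tbx1* in cardiomyocytes and of *Isl1* and *Tbx5* in progenitors. Those of *Isl1*, *Tbx5* and *Tbx20* over the lineage did not overlap either. With 2 libraries per group, here and below, such separation arises often by chance.

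*Mef2c* in cardiopharyngeal progenitors of E8.5 gave the other unadjusted p under 0.05. The levels were 55.8 and 52.6 CPM in WT and 31.3 and 53.0 in null libraries, a log2 fold change of -0.46 (-0.92 to -0.0050), and null B lay between the WT values. Without null A the log2 fold change was 0.01. In E9.5 cardiomyocytes *Mef2c* varied widely. WT libraries stood at 571, 553, 639 and 322 CPM and null libraries at 366, 240, 210 and 678, and the interval of the log2 fold change, -1.55 to 0.58, leaves room for a more than 2-fold decrease.

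*Isl1* stood at 83.1 and 75.2 CPM over the WT cardiac lineage and at 92.4 and 91.9 in null libraries at E8.5, which did not overlap (log2 fold change 0.23, -0.04 to 0.51). At E9.5 it stood at 114, 153, 116 and 138 CPM in WT and 130, 123, 106 and 155 in null libraries (-0.04, -0.30 to 0.22). *Tbx1*, the pharyngeal factor, stood at 49.7 and 36.8 CPM in WT and 52.1 and 27.8 in null libraries at E8.5 and at 36.4, 50.4, 37.7 and 27.2 and 30.9, 34.4, 51.0 and 41.4 at E9.5. Groups of *Tbx1* overlapped at both stages.

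*Tbx5* over the cardiac lineage stood at 46.0 and 47.4 CPM in WT and 44.8 and 39.3 in null libraries at E8.5 and at 52.4, 78.0, 63.2 and 43.8 against 88.3, 73.1, 66.7 and 60.4 at E9.5. The E9.5 log2 fold change was 0.28 (-0.11 to 0.68). *Tbx20* stood at 39.0 and 52.2 CPM in WT and 32.6 and 38.0 in null libraries at E8.5 (-0.38, -0.79 to 0.03) and, at E9.5, at 28.9, 10.8, 12.5 and 18.3 against 28.9, 21.6, 10.5 and 9.12. The 2 genotypes of *Tbx20* overlapped at E9.5 and did not at E8.5.

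*Hand1* stood at 13.2 and 22.3 CPM over the WT lineage and 12.4 and 24.3 in null libraries at E8.5, and at 21.8, 9.00, 23.0 and 22.8 against 30.4, 13.6, 20.7 and 8.34 at E9.5. *Hand2* stood at 58.9 and 77.8 against 60.7 and 80.0 CPM at E8.5, and at 84.7, 59.1, 52.9 and 72.3 against 107, 55.2, 54.7 and 64.6 at E9.5. *Mef2c* over the lineage stood at 177 and 215 against 136 and 207 CPM at E8.5 and at 187, 126, 157 and 118 against 138, 93.0, 89.4 and 202 at E9.5. All 3 overlapped between the genotypes at both stages. *Gata4* over the lineage stood at 32.8 and 49.1 against 30.9 and 33.6 CPM at E8.5, and at 16.7, 26.7, 28.8 and 21.6 against 21.2, 30.1, 17.8 and 26.6 at E9.5. Its groups overlapped as well.

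**Figure D2:**
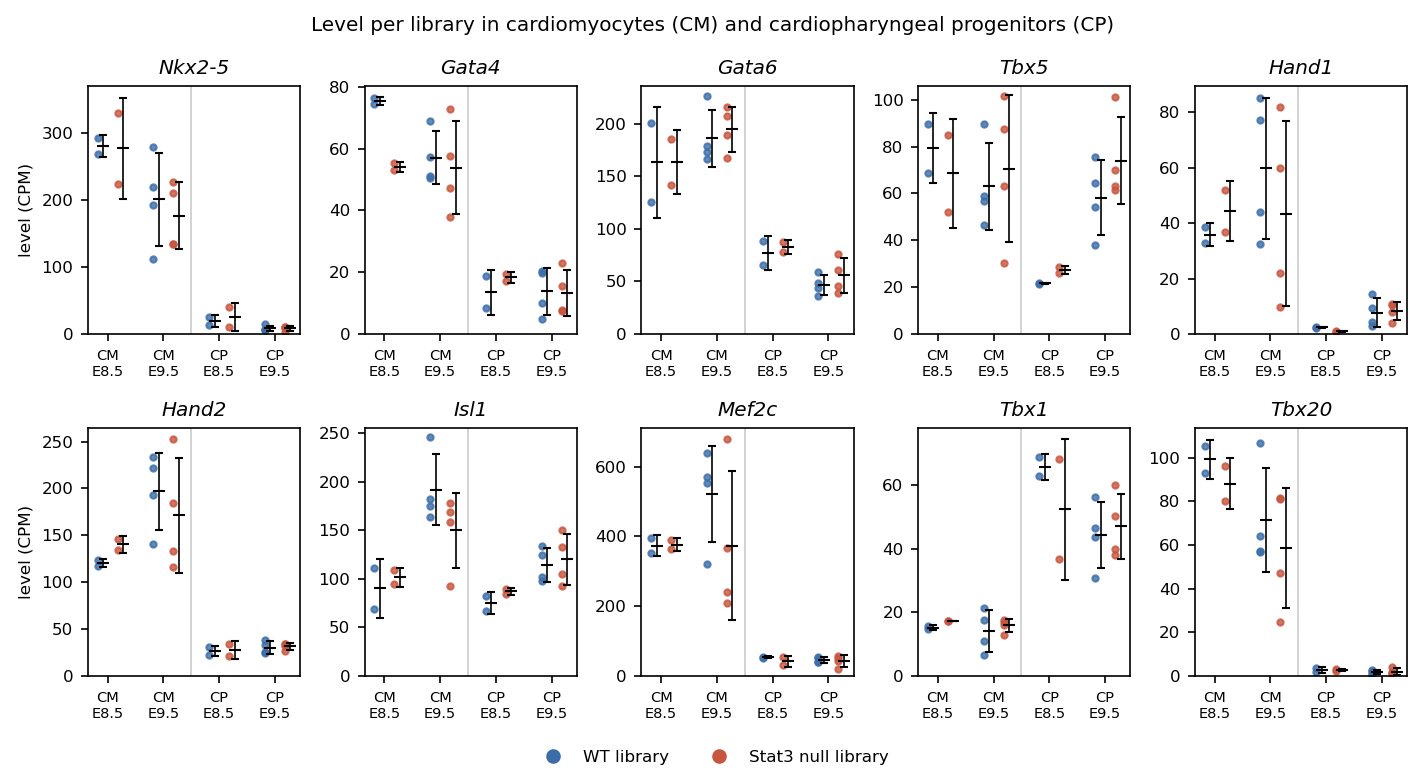
Level in CPM of each member in every WT and null library with over 15 cells, for cardiomyocytes (CM) and cardiopharyngeal progenitors (CP) at E8.5 and E9.5, with 1 point per library and the mean ± SD in black. WT and null points overlap in most panels. *Gata4* in E8.5 cardiomyocytes, at 74.5 and 76.3 CPM in WT and 53.0 and 55.3 in null libraries, is among the E8.5 groups that do not.

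The intervals say how much these libraries could have shown. In E8.5 cardiomyocytes all 10 members had a 95% interval within a 2-fold change in either direction. In E9.5 cardiomyocytes 7 of 10 did, in progenitors 6 of 8 at E8.5 and 7 of 9 at E9.5, and over the lineage 8 of 10 at E8.5 and 7 of 10 at E9.5. In the fit of the stages together all 10 did over the lineage. The intervals of the stage difference were wider, and 2 or 3 of 10 in each pool lay within 2-fold. A failed test therefore does not show equal levels. An interval within 2-fold bounds the change and can still exclude equal levels, as that of *Gata4* in E8.5 cardiomyocytes did (-0.85 to -0.08). For the rest the interval reached past 2-fold, as for *Hand1* in E9.5 cardiomyocytes (32.3 to 85.1 CPM in WT, 9.76 to 81.9 in null libraries, interval -1.95 to 1.11).

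**Figure D3:**
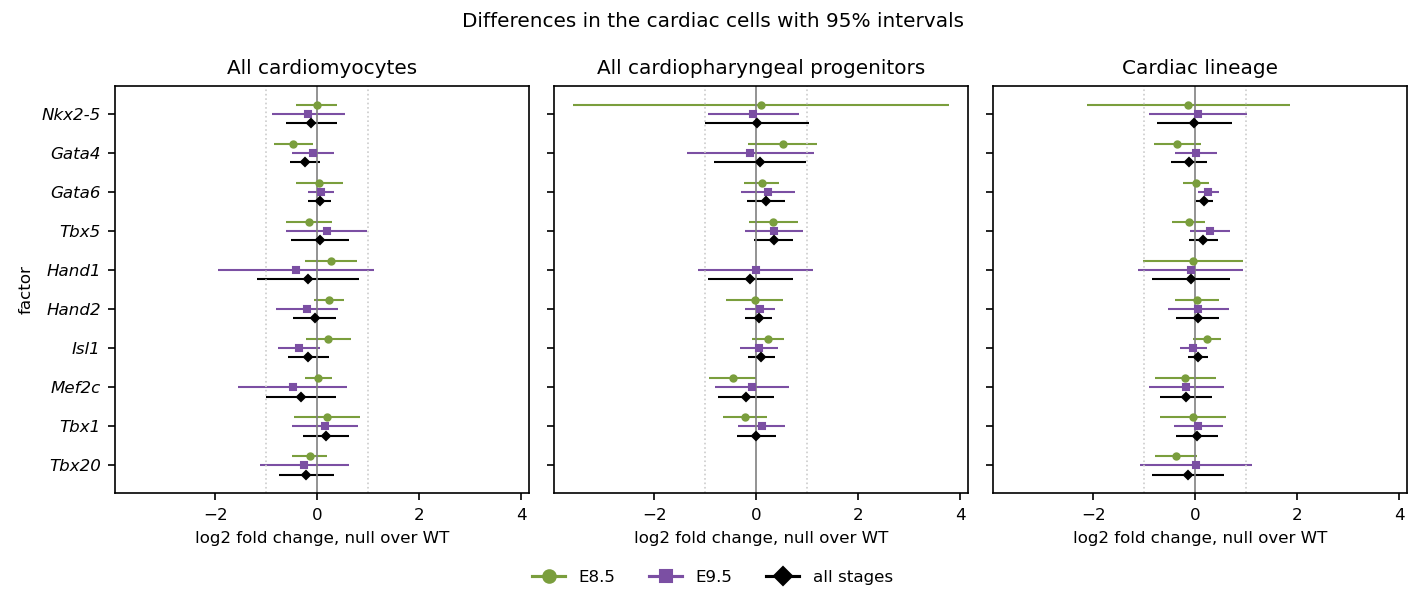
Log2 fold change (null over WT) of each member with its 95% interval, by cardiac pool, for E8.5, E9.5 and both stages together. The legend calls the last all stages, which holds no E7.5 library, and dotted lines mark a 2-fold change. Point estimates run from -0.47 to 0.52 at E8.5 and from -0.49 to 0.34 at E9.5, and none of these differences was called.

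Within single labels no member was called at E7.5 in 40 tests over 7 labels, with 6 at an unadjusted p under 0.05, against 0.184% of all genes called. Without WT library A 2 were called there, *Hand1* in intermediate mesoderm (log2 fold change -1.61) and *Gata6* in paraxial mesoderm (1.08). None was called at E8.5 in 62 tests over 17 labels, with 4 at an unadjusted p under 0.05, against 0.0615% of all genes. At E9.5 2 of 116 member tests over 34 labels were called, both higher in null cells, against 0.119% of all genes, and 16 were at an unadjusted p under 0.05. Both were in labels outside the cardiac lineage. Over all genes, counts at an unadjusted p under 0.05 per label ran from 224 of 10601 (ectoderm) to 446 of 9187 (mesenchyme) at E7.5. At E8.5 they ran from 191 of 8451 (allantois) to 804 of 10128 (erythroid), and at E9.5 from 223 of 8258 (allantois) to 1235 of 10679 (sclerotome). The member shares at E7.5 and E9.5 lay above those of every label, and this was not tested. Inside the cardiac lineage, the labels with enough cells were the FHF progenitors at both stages and the SHF progenitors at E9.5. The smallest p there was that of *Tbx5* in SHF progenitors. It stood at 5.84, 15.3 and 7.78 CPM in WT libraries B, C and D and 36.6, 18.04 and 19.3 in null libraries A, B and C, which did not overlap. The log2 fold change was 1.31 (SE 0.40), unadjusted p 0.00313 and adjusted p 0.506, on 20 and 60 UMIs. *Nkx2-5* in the same cells was at 19.5, 15.3 and 23.3 CPM in WT and 5.23, 21.1 and 7.72 in null libraries (log2 fold change -0.88, adjusted p 0.926).

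*Isl1* was higher in null placodal ectoderm at E9.5. This label, surface ectoderm that gives rise to sensory organs and cranial ganglia, held over 15 cells in 2 libraries per genotype. *Isl1* stood at 37.9 and 22.2 CPM in WT libraries A and D (54 cells, 55 UMIs) and at 91.2 and 75.2 in null libraries A and B (90 cells, 278 UMIs), and the groups did not overlap. The log2 fold change was 1.49 (SE 0.23, 95% interval 1.02 to 1.95) with an adjusted p of 4.95e-05 (edgeR), in a label in which 0.222% of 7653 genes were called. In cells thinned to 10000 UMIs, 20.9% of WT and 44.8% of null cells held an *Isl1* UMI, and 43.2% and 73.2% unthinned, while 1.01% of WT erythroid cells did when thinned. Median depths were 34222 and 34677 UMIs in the placodal cells and 22601 in the erythroid cells. The call was lost with DESeq2 (adjusted p 0.0815) and without WT library D (0.0713).

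*Tbx1* in the same label had an estimate of the opposite sign, at 20.6 and 25.5 CPM in WT and 7.81 and 0 in null libraries, where 3 UMIs in null B would be 4.03 CPM, and it missed the threshold (log2 fold change -2.01, adjusted p 0.0659). It was called with limma-voom (-3.23, adjusted p 0.0363) and without the low-count filter (-2.03, 0.00265). It was also called without null A (-7.35, 0.0179), where the 1 null library left is the one at 0 UMIs, so that the size of this fold is set by the fit and is no bound. The erythroid list summed to 320 to 455 CPM in WT and 6.71 to 16.4 in null libraries. Neural markers summed to means of 522 and 511 CPM, and endoderm markers to 850 and 892. The part of these lists in the *Isl1* call was not tested. At E8.5 the same label held *Isl1* at means of 23.4 CPM in WT and 24.7 in the 1 null library with enough cells. In the epidermis, another surface ectoderm label, *Isl1* stood at 8.41, 7.82, 8.42 and 13.6 CPM in E9.5 WT and 19.4, 16.3, 20.9 and 21.0 in null libraries. These groups did not overlap either, with a log2 fold change of 0.91 and an adjusted p of 0.450.

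*Mef2c* was higher in null mesenchyme at E9.5, a label in which it is a low-level gene. It stood at 5.05, 6.24, 5.67 and 7.08 CPM in WT libraries A to D (282 cells, 51 UMIs) and at 14.5, 14.9, 14.3 and 15.1 in null libraries (206 cells, 104 UMIs). Every null library lay above every WT library. The log2 fold change was 1.25 (SE 0.24, 95% interval 0.75 to 1.74) with an adjusted p of 0.0239 (edgeR), in a label in which 0.0869% of 9202 genes were called. In E8.5 mesenchyme *Mef2c* stood at 2.70 and 3.93 CPM in WT and 10.7 and 9.01 in null libraries, again without overlap. The log2 fold change of 1.599 was not called (unadjusted p 0.00153, adjusted p 0.547, edgeR). In E7.5 mesenchyme the groups overlapped, at 7.87 and 17.3 CPM in WT and 15.7 and 4.42 in null libraries. The log2 fold change there was -0.04 (95% interval -1.44 to 1.37). The E9.5 call stands close to its threshold. It was lost with DESeq2 (adjusted p 0.0901), with only libraries of over 50 cells (0.228), with all libraries in 1 fit (0.173) and without any 1 of null A, C or D or WT A, B or C (0.0621 to 0.0908), while the log2 fold change stayed between 1.18 and 1.37. Thinned, 3.91% of WT and 8.64% of null mesenchyme cells held a *Mef2c* UMI, against 2.13% of WT erythroid cells, which may express it themselves, at median depths of 28043, 32915 and 22601 UMIs, and 13.6%, 21.1% and 3.23% did unthinned. Endothelium markers, whose cells hold *Mef2c*, summed to means of 44.2 CPM in WT and 40.7 in null mesenchyme. Erythroid markers summed to 269 and 43.4, and their part in the call was not tested.

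**Figure D4:**
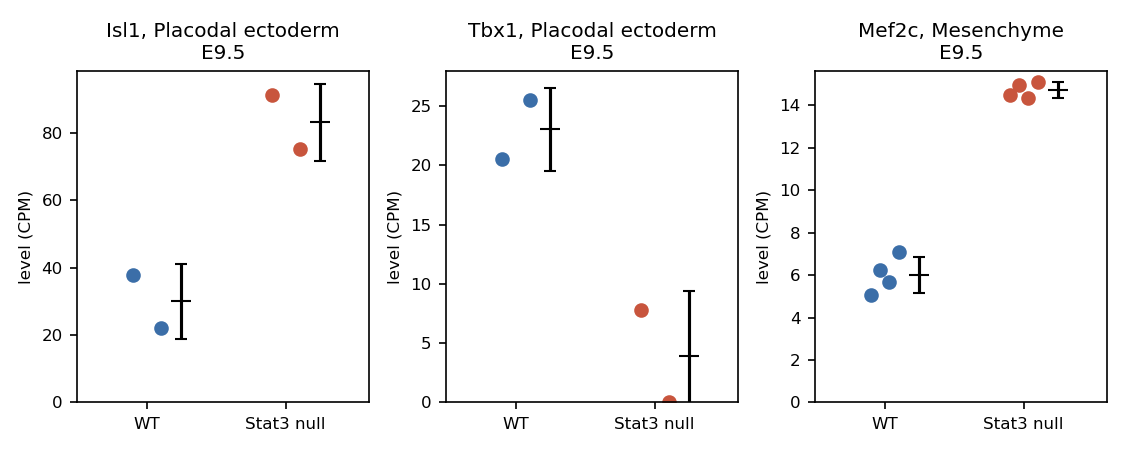
Level in CPM per E9.5 library, WT against null, with the mean ± SD beside the points, for *Isl1* and *Tbx1* in placodal ectoderm and *Mef2c* in mesenchyme. Null points lie above WT points for *Isl1* (75.2 and 91.2 CPM) and *Mef2c* (14.3 to 15.1 CPM), and below them for *Tbx1*, which edgeR did not call.

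Other members had an unadjusted p under 0.05 and were not called, and those of E9.5 are given in part. In E9.5 pharyngeal mesoderm *Hand2* stood at 81.2, 55.6, 43.7 and 78.1 CPM in WT and 49.7, 18.4 and 18.8 in null libraries A, B and C (log2 fold change -1.16, adjusted p 0.541), and it was called without the low-count filter (adjusted p 0.000337) and without null A (-1.83, 0.000290). *Isl1* was called in this label without WT B (-1.27, 0.0208). *Tbx1* in the same cells stood at 6.55, 20.03, 11.3 and 9.76 against 29.0, 23.0 and 17.5 CPM (1.09, adjusted p 0.453). The libraries of the genotypes overlapped for both. *Mef2c* in E9.5 EMP stood at 401 to 538 CPM over 4 WT libraries and at 592 and 741 in null libraries A and D (0.53, adjusted p 0.364). *Gata4* in E8.5 mesenchyme stood at 16.2 and 17.7 against 8.04 and 10.8 CPM (-0.92, adjusted p 1.00). At E7.5 *Isl1* in mesenchyme stood at 4.09 and 5.50 CPM in WT and 1.37 and 0.983 in null libraries (-1.84, adjusted p 0.481, on 10 null UMIs). In ectoderm it stood at 3.02 and 4.42 against 6.59 and 8.36 CPM (0.92, adjusted p 1.00) and in paraxial mesoderm at 18.9 and 26.9 against 32.2 and 46.3 (0.64, adjusted p 0.864), so the sign of the *Isl1* estimate differed between labels. *Mef2c* in E7.5 paraxial mesoderm stood at 12.9 and 14.5 against 25.9 and 22.8 CPM (0.86, adjusted p 0.364). Also at E7.5, the log2 fold change was -1.37 for *Tbx20* in paraxial mesoderm and 0.36 for *Gata6* in lateral plate mesoderm. At E8.5 it was -1.72 for *Isl1* in erythroid cells and 0.35 for *Hand1* in amniotic ectoderm. With all libraries and the low-count filter, none of these passed the adjustment in edgeR.

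The stages were then compared in WT cells alone. Between E7.5 and E8.5, 7 of 15 member tests were called in the 2 labels with enough cells, 2 higher and 5 lower at E8.5, against 8.55% of all genes. In lateral plate mesoderm 4 of the 7 members tested fell. *Hand1* fell from 769 and 619 CPM to 101 and 133 (log2 fold change -2.48, adjusted p 2.55e-06, edgeR). *Mef2c* fell from 27.7 and 33.9 to 3.02 and 3.07 CPM (-3.26), *Tbx20* from 43.7 and 56.4 to 3.02 and 6.15 (-3.38), and *Gata4* from 28.6 and 28.8 to 0 and 4.61 (-3.54), where 3 UMIs in the library at 0 would be 1.51 CPM. *Hand2* went the other way, from 79.1 and 68.2 to 131 and 138 CPM, and passed the adjusted p with a fold change just under the threshold (0.98, adjusted p 1.89e-05). Of the remaining pair, *Gata6* had a log2 fold change of -0.93 (adjusted p 0.000278) and *Isl1* of 0.64 (0.480). In mesenchyme 3 of the members tested were called. *Tbx5* rose there from 1.89 and 1.69 to 19.6 and 14.7 CPM (3.24, adjusted p 4.57e-05), *Hand2* rose from 74.0 and 80.8 to 146 and 158 (1.00, at the fold threshold), and *Mef2c* fell from 7.87 and 17.3 to 2.70 and 3.93 (-1.84). *Hand1* (-0.69, adjusted p 0.000162) and *Gata6* (0.72, adjusted p 0.00351) passed the adjusted p there with a fold change under the threshold. The fitted size of the *Gata4* fall varied, at -2.55 without E8.5 WT A and -9.62 without E8.5 WT B, where the library left is the one at 0 and the fold is no bound. The *Gata4* call was lost with DESeq2 (adjusted p 0.363), and that of *Mef2c* in mesenchyme with DESeq2 (0.0559) and without E7.5 WT B (0.154). *Hand2* fell below the fold threshold in 6 of 10 alternatives, without E7.5 WT A (0.94) or E8.5 WT B (0.93), with DESeq2, with its size factors, without the low-count filter and with WT-sorted tdTomato cells kept (0.99 to 1.00). The cells under a label may themselves be of another kind at the later stage, and fewer expressing cells cannot be told from less RNA per cell.

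Between E8.5 and E9.5, 14 of 108 member tests in 30 labels were called, 5 higher and 9 lower at E9.5, against 3.2% of all genes. *Isl1* rose in 4 labels. In limb mesoderm it rose from 4.83 and 5.88 CPM to 54.2, 55.4, 40.9 and 62.6 (log2 fold change 3.20, adjusted p 2.21e-05). In mesenchyme it rose from 4.05 and 5.56 to 23.6, 42.1, 21.3 and 39.9 CPM (2.63), and in migratory neural crest from 0 and 1.20 to 9.92, 17.9, 9.42 and 27.1 (4.35, where 3 UMIs in the library at 0 would be 1.15 CPM). The fourth was the optic vesicle, at 0.669 and 0.811 against 4.22, 2.94, 3.74 and 5.06 CPM (2.21). These are low levels, and WT erythroid cells of E8.5 held *Isl1* at 0.580 and 1.04 CPM. The part of free RNA in this rise was not tested. In the neural crest the call was lost with limma-voom (adjusted p 0.0656) and without E8.5 WT A (3.56, 0.0629), E8.5 WT B (8.35, 0.0598, with only the library at 0 left at E8.5) or E9.5 WT B (0.0526), and in the optic vesicle without E8.5 WT A (0.0506) or B (0.0691). *Gata6* rose in the allantois, from 123 and 108 to 269, 314 and 247 CPM (1.10, adjusted p 0.00410).

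The 9 falls were spread over neural crest, blood, hindbrain, thyroid and mesodermal labels. *Mef2c* fell from 213 and 245 CPM in branchial arch neural crest to 31.1, 41.6, 24.2 and 44.6 (log2 fold change -2.86, adjusted p 8.06e-05), and it fell too in erythroid cells, from 3.64 and 7.40 to 2.19, 1.82, 0.764 and 0.537 (-1.72), and in dorsal hindbrain progenitors, from 13.2 and 21.5 to 7.85, 8.86, 8.53 and 11.1 (-1.13). *Tbx1* fell in cranial mesoderm, the source of head muscle, from 67.0 and 60.5 to 7.41, 10.7, 9.73 and 18.2 CPM (-2.61, adjusted p 1.49e-09), and at low level in branchial arch neural crest, from 4.29 and 3.69 to 0.575, 0, 1.95 and 1.73 (-1.93, where 3 UMIs in the library at 0 would be 1.17 CPM). *Hand1* fell in presomitic mesoderm from 41.7 and 57.3 to 1.86 and 5.66 CPM (-3.77), *Nkx2-5* in the thyroid primordium (-1.87, adjusted p 0.000165, values given above), *Gata4* in mesenchyme, from 16.2 and 17.7 to 6.74, 4.68, 12.05 and 10.6 CPM (-1.10), and *Gata6* in SHF progenitors, from 49.4 and 79.7 to 48.6, 21.4 and 29.99 CPM (-1.14, adjusted p 0.0332). The last was lost with DESeq2 (adjusted p 0.288), without E8.5 WT B (0.400) and without E9.5 WT C (0.138) or D (0.0594). Without E8.5 WT B the falls of *Mef2c* in erythroid cells (0.102) and dorsal hindbrain progenitors (0.317) and of *Gata4* in mesenchyme (0.0993) were lost as well. That of *Gata4* was also lost with DESeq2 (0.0650) and was under the fold threshold without E9.5 WT B (-0.91). *Tbx1* in branchial arch neural crest was lost with DESeq2 (0.0836) and without E8.5 WT A (0.297), E8.5 WT B (0.0957) or E9.5 WT A (0.0573).

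Within the cardiac lineage, which leaves out the epicardium, 2 of 29 member tests in the 3 pools were called between E8.5 and E9.5 WT cells. Of all genes 3.18% were called. *Tbx5* rose in cardiopharyngeal progenitors from 21.4 and 21.9 CPM to 54.4, 75.7, 64.6 and 37.9 (log2 fold change 1.26, SE 0.31, adjusted p 0.0347). In the FHF progenitors alone it stood at 31.7 and 35.2 CPM and then at 122, 119, 99.1 and 58.1 (1.40, adjusted p 0.0822). *Tbx20* fell over the whole lineage from 39.0 and 52.2 to 28.9, 10.8, 12.5 and 18.3 CPM (-1.59, SE 0.36, adjusted p 0.0358). Cardiomyocytes were 34.8% and 51.5% of the lineage at E8.5 and 18.9% to 27.1% at E9.5, and within cardiomyocytes *Tbx20* stood at 105.5 and 92.8 and then at 107, 57.4, 56.7 and 64.2 CPM (-0.64, adjusted p 0.117), so the smaller change within cardiomyocytes was not called. *Nkx2-5*, also tied to cardiomyocytes, changed by -1.59 over the lineage (adjusted p 0.0964) and by -0.66 within cardiomyocytes (adjusted p 0.305). In cardiopharyngeal progenitors *Nkx2-5* changed by -1.29, which was not called. *Isl1* passed the adjusted p in all 3 pools with a fold change under the threshold. In cardiomyocytes it went from 112 and 68.8 to 164, 246, 183 and 175 CPM (0.93, adjusted p 0.0271), and the log2 fold change was 0.46 in progenitors (adjusted p 0.0398) and 0.54 over the lineage (0.0120). Lower values that passed in the same way were those of *Gata6* in progenitors (-0.86, adjusted p 0.00379) and over the lineage (-0.72, 0.00102), *Tbx1* in progenitors (-0.76, 0.0175) and *Gata4* over the lineage (-0.99, 0.0143). The *Tbx5* call was lost with limma-voom (adjusted p 0.127), without E8.5 WT A (0.229) or B (0.244) and without E9.5 WT A (0.0699) or C (0.0715). The *Tbx20* call was lost without the low-count filter (0.0869), without E8.5 WT A (0.0771) or B (0.236) and without E9.5 WT C (0.0604) or D (0.0890).

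**Figure D5:**
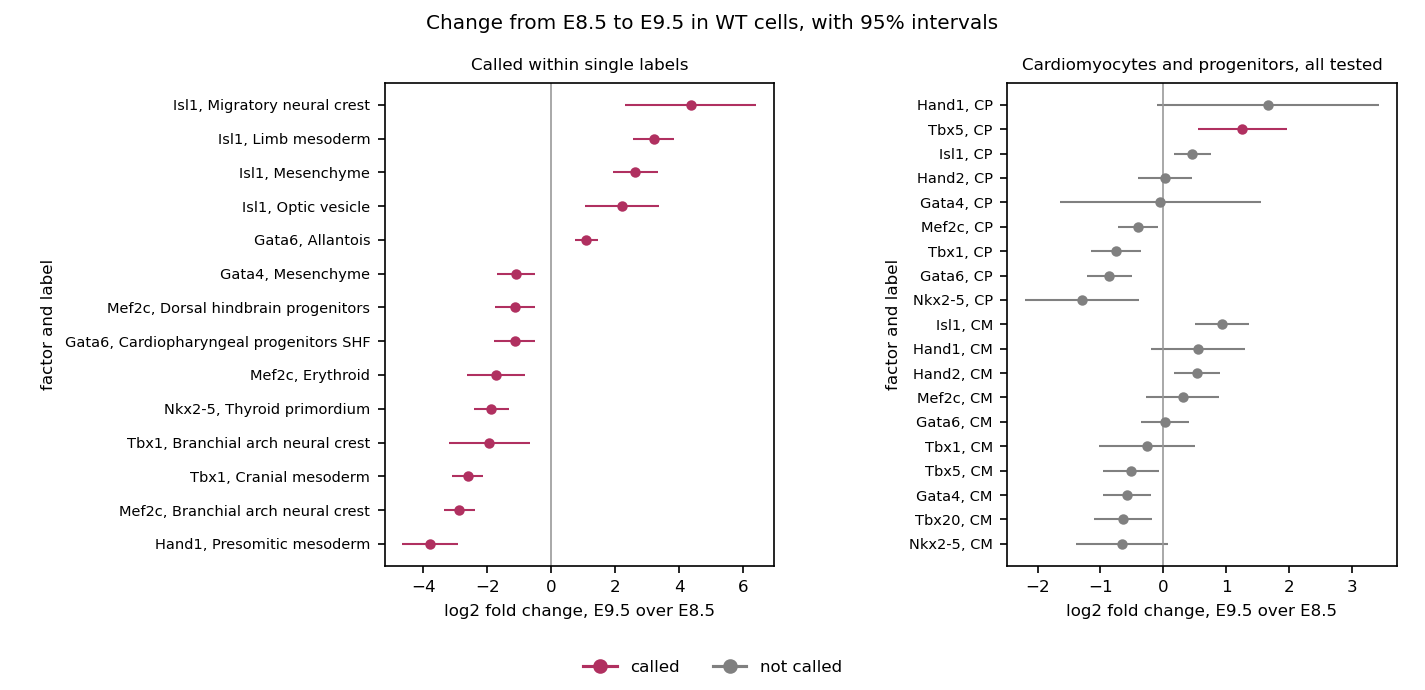
Log2 fold change of E9.5 over E8.5 WT cells with its 95% interval, for the members called within single labels (left) and for all members tested in pooled cardiomyocytes (CM) and cardiopharyngeal progenitors (CP, right). *Isl1* lies to the right of 0 in its 4 labels, from 2.21 to 4.35, and *Tbx5* in progenitors is the point called in the right panel.

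A list of 51 other cardiac regulators (cofactors, chamber, valve, pharyngeal, early mesoderm and epicardial genes) was read beside the members. Null and WT cells gave 0 calls among the 47 tested over the E8.5 lineage, with 4 at an unadjusted p under 0.05, and 0 of 46 at E9.5, with 1. Among all genes 383 of 10239 at E8.5 and 734 of 10782 at E9.5 had such a p. The list's median log2 fold change was 0.00 and -0.05, and that of all genes was 0.00 at both stages. The smallest p at E8.5 was that of *Tlx1*, a homeobox gene (log2 fold change 0.97, unadjusted p 0.000515, adjusted p 0.251). In E8.5 cardiomyocytes 10 of 38 regulators had an unadjusted p under 0.05, against 359 of all 8530 genes, and 0 were called. The chamber, valve and conduction genes among them had 5 of 14, with a median log2 fold change of 0.56 against 0.00 for all genes, and *Irx5* (0.90, adjusted p 0.686) and *Irx3* (0.70, adjusted p 0.686) had the smallest p of these. The same list had a median of -0.01 in E8.5 progenitors, with 3 of 13 at an unadjusted p under 0.05, and of 0.07 in E9.5 cardiomyocytes, with 0 of 10. *Aldh1a2*, which makes retinoic acid, came nearest to the threshold, in E9.5 SHF progenitors (0.97, adjusted p 0.0524). Between E8.5 and E9.5 WT cells 9 of 48 regulators tested over the lineage were called, 2 higher and 7 lower, against 466 of all 10826 genes. *Msc*, a pharyngeal muscle factor, rose (3.16), as did *Prrx1* (1.07). Those that fell included *Irx4* and *Hey2*, ventricular factors (-4.39 and -1.89), *Myocd*, a smooth and cardiac muscle coactivator (-1.22), *Hopx* (-2.68), *Fgf8* (-2.27) and *Smarcd3* (-1.15). The cardiomyocyte share of the lineage was lower at E9.5, as given above. Within cardiomyocytes 4 of 38 were called, against 128 of all 8523 genes. *Irx4* (-5.12) and *Fgf8* (-1.35) were lower and *Sema3d* (2.48) and *Mef2a* (1.18) higher. *Hey2*, *Myocd*, *Hopx* and *Smarcd3* were not among those called.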

How the data were processed

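Counts were UMIs per gene and cell, and the authors deposited them with a table of cells that holds the label, the sort gate, the doublet call and the percent of mitochondrial counts of each cell. Per the labels and the study's methods, Cell Ranger had aligned reads to mm10 with a tdTomato sequence added. The authors had removed low-quality cells and called doublets, and had transferred labels from a gastrulation atlas, so genes used for the labels may include the members. The library names of the deposited cell table carry stage and gate but match no sample title.

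Members and lists were chosen with earlier results of these data known. Singlets were used, null being tdTomato-sorted and WT being tdTomato-negative without a tdTomato UMI. Of the null-sorted singlets, 1018 of 17387 had no tdTomato UMI and were kept. Counts were summed per library and label, or over the cardiac labels, and libraries with more than 15 cells were tested where each group had at least 2. Of 29453 genes, 8172 were left out of tests after the study's own gene filter, except that imprinted genes, which the study also removed, were kept. The test was edgeR 4.0.16 quasi-likelihood (robust, filterByExpr, TMM) with Benjamini-Hochberg adjustment over all genes of a fit, and a member was called at an adjusted p under 0.05 with an absolute log2 fold change over 1. In 16 pairs of replicate libraries the lowest chi-square per degree of freedom was 18.1, so none was a duplicate. The precision rests on the UMIs, which are given beside the calls between null and WT cells. They are not given beside the calls between stages, and some of those rest on few UMIs. In E8.5 WT lateral plate mesoderm *Gata4* had 9 UMIs and *Mef2c* had 12. Floors of 3 UMIs cover counting error only.

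All 10 members were named, with values per library for called differences, for their 2 highest labels and for the cardiac lineage, the 3 most alike genes, and other regulators that were called or had the smallest p. Likeness used log2(CPM + 1) and genes reaching 20 CPM. Alternatives were DESeq2 1.42.0, limma-voom (limma 3.58.1), DESeq2 size factors, no low-count filter, more than 50 cells, other handling of tdTomato, all libraries in 1 fit and leaving out each library. The tests were checked on simulated data. Sequences are from RefSeq (GRCm38.p6). R 4.3.3 and Python 3.11.15 were used.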

Additional observations from a re-analysis of the deposited data

Results flagged for a closer look

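Of 70 groups of 4 E9.5 libraries examined, a single library stood far from the other 3 in 4 groups, where chance flags about 1 in 20 groups. *Hand1* over the cardiac lineage was 9.00 CPM in WT library B and 21.8 to 23.0 in the other WT libraries. *Nkx2-5* in cardiopharyngeal progenitors was 14.3 CPM in WT library D, against 5.48 to 6.81 in the other WT libraries, and 2.92 CPM in null library A, against 9.56 to 10.8 in the other null libraries. *Tbx20* in cardiomyocytes was 107 CPM in WT library A and 56.7 to 64.2 in the others. Per WT library these values rest on 21 to 58 cardiomyocytes, 68 to 156 progenitors or 90 to 214 cells of the lineage, and per null library on 70 to 110 progenitors, and what sets the libraries apart was not tested.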

How the results depend on the processing

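No member was called between null and WT cells in single labels at E8.5 or in the cardiac pools under any alternative run (13 at E8.5, and 13, 17, 23 and 23 for the pools at E8.5, E9.5, over both stages and for the stage difference). The last 2 fits held no E7.5 library, so their runs without an E7.5 library repeat the main fit and could not differ. At E7.5 the count went from 0 to 2 without WT library A (leaving out libraries gave 0 to 2). The 2 calls at E9.5 became 0 with DESeq2, 3 with limma-voom, 4 without the low-count filter, 1 with all libraries in 1 fit, 0 with more than 50 cells, and 1 to 3 when a library was left out. Between E7.5 and E8.5 the 7 WT calls became 4 with DESeq2 and 11 without the fold threshold, and 7 to 9 when a library was left out. Between E8.5 and E9.5 the 14 became 23 without the low-count filter, 8 with more than 50 cells and 25 without the fold threshold, and 11 to 20 when a library was left out. The 2 calls in the cardiac pools became 5 with DESeq2, 1 with limma-voom, 4 with WT-sorted tdTomato cells kept and 9 without the fold threshold, and 0 (without E8.5 WT library B) to 4 (without E8.5 WT library A) when a library was left out. Where leaving out a library left 1 in an arm, that library was assumed to vary like the other groups of the fit. For null against WT, such runs used all libraries of the label over all stages, with 1 mean per stage and genotype. They therefore differ from the main fit in model as well as in libraries. The runs at E7.5 without WT library A and those of placodal ectoderm without a library are of this kind. No called value changed sign. More than 50 cells leaves fewer labels (14 in place of 34 at E9.5), and the cause of the other changes was not tested. No paired analysis was possible because the library names of the cell table carry no replicate number, so null and WT libraries of 1 embryo pool could not be matched. Low-level members are limited by depth, and several calls rest on under 100 UMIs per group.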
